A study of Rattus norvegicus with 18 samples.

Results

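The comparison of rings treated with angiopoietin-1 (Ang1) and untreated rings comprised 12 of the 18 samples of a microarray study of rat aorta, which are 6 of its 9 RNAs, each hybridised to an Affymetrix RAE230A array (array A here) and an RAE230B array (array B). The members were taken from the sample titles, with 3 RNAs of Ang1-treated rings and 3 of untreated rings. The remaining RNAs came from rings given VEGF. Thoracic aortas of male Fisher 344 rats aged 5 weeks had been cut into rings of 2 mm and kept in suspension in serum-free endothelial basal medium until day 14. On day 13, treated rings received recombinant human Ang1 at 100 ng/ml together with an antibody to the poly-histidine tag at 5 µg/ml, whereas untreated rings were left in serum-free medium alone. No group received the antibody alone, so Ang1 and the antibody cannot be told apart. RNA was taken after 20 h by the sample titles and after 18 h by the design text. Each RNA pooled 4 to 6 rings, and by the design text 3 animals each gave 1 RNA to every group, although no label ties a replicate number to an animal. The labelling protocol of untreated replicate 1 names a two-cycle reaction, and those of the other RNAs compared do not.

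Ang1 is a secreted ligand of the receptor tyrosine kinase Tie2, encoded by Tek and found mainly on endothelial cells. Perivascular cells make Ang1, and the related ligand Angpt2 can oppose it. Tie2 signalling runs through PI3-kinase and AKT to hold the transcription factor FOXO1 out of the nucleus, and it is known for keeping vessels quiescent, strengthening junctions and dampening NF-kB through the adaptor Tnip2. In explanted aortic rings, sprouting involves endothelial cells, mural cells and resident macrophages, and macrophage cytokines contribute to it.

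After filtering, 9520 probe sets on array A and 9166 on array B were tested. Values are normalised log2(signal + 16), and differences are Ang1 minus untreated, with the standard error of limma's moderated fit. None of the probe sets passed an adjusted p of 0.05 in limma on array A (0%) or on array B (0%), and the smallest adjusted p was 0.951 and 0.102. At an unadjusted p under 0.05, limma gave 103 higher (1.08%) and 200 lower (2.1%) probe sets on array A, and 408 higher (4.45%) and 556 lower (6.07%) on array B. All 3 Ang1 values lay above all 3 untreated values for 335 probe sets of array A (3.52%) and below them for 530 (5.57%); on array B the numbers were 799 (8.72%) and 803 (8.76%). With 1 probe set per gene over both array types, 9991 genes were measured, 4465 higher and 5526 lower, of which 525 were higher without overlap (5.25%) and 733 lower (7.34%). At an unadjusted p under 0.05 there were 211 higher (2.11%) and 379 lower genes (3.79%). The balance of directions depended on scaling. With each array scaled to its median, the split at an unadjusted p under 0.05 was 55 higher and 459 lower on array A, and 254 higher and 957 lower on array B; with the trimmed mean alone it was 248 higher and 135 lower on array A, and 729 higher and 527 lower on array B. The median difference of all probe sets was -0.03 and -0.01 on arrays A and B as normalised here, -0.23 and -0.18 with median scaling, and 0.08 and 0.12 with the trimmed mean alone.

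A pair of RNAs stood apart, untreated replicate 2 and Ang1 replicate 2. Their median correlations with the other arrays on array A were 0.79 and 0.69 and on array B 0.74 and 0.43, against 0.93 to 0.95 and 0.82 to 0.87 for the other 4 RNAs. Their Gapdh 3' control signals were 64.4 and 446.9 on array A, where the others gave 2218 to 3173. Values are therefore also given without both RNAs. As each sample is bulk tissue, fewer cells of a type and less RNA per cell cannot be told apart.

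Chemokines were the list with the highest median difference. Of 19 measured chemokines, secreted proteins that draw leukocytes, 16 were higher and 3 lower; 5 were higher without overlap and none lower without overlap, against the 5.25% and 7.34% of all genes given above. Their median difference was 0.75, and 1.23 without the RNAs that stood apart, where the medians of all genes were -0.06 and 0.01. None passed the adjusted test.

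Ccl4, a chemokine for monocytes and T cells, had values of 7.56, 7.54 and 6.75 in untreated replicates 1, 2 and 3 and 8.59, 9.10 and 8.65 in the Ang1 replicates, a difference of 1.5 ± 0.32 (SE, limma, n = 3 per group, unadjusted p = 0.000691, adjusted p = 0.951). Cxcl2, which attracts neutrophils, had untreated values of 5.85, 6.43 and 5.72 and Ang1 values of 8.09, 6.81 and 8.63. All 3 Ang1 values of each gene lay above the untreated ones, but Cxcl2 was much lower in Ang1 replicate 2 than in the other treated RNAs. Its difference was 1.84 ± 0.48, and 2.65 without both RNAs. The untreated values of Cxcl2 all lay below 6.52, the lowest mean over the 9 arrays that the filter kept on array A. Cxcl2 was thus dim in untreated rings and passed the filter through the other RNAs. Ccl2, the main monocyte attractant, had untreated values of 8.27, 9.68 and 9.38 and Ang1 values of 10.79, 10.31 and 10.26, with no overlap (difference 1.34 ± 0.44). Ccl19, a ligand of the lymphocyte and dendritic cell receptor Ccr7, measured 8.30, 8.98 and 8.87 in untreated rings and 10.05, 10.03 and 10.55 after Ang1 (1.49 ± 0.35). The fifth chemokine without overlap was Cx3cl1, a membrane-bound chemokine of endothelium, named after its values were seen (0.75 ± 0.36).

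The other higher chemokines overlapped in Ang1 replicate 2. Ccl3 measured 7.59, 8.55 and 7.40 in untreated rings and 9.44, 8.46 and 9.35 after Ang1. Cxcl1, named after its values were seen, measured 6.62, 7.0 and 7.78 against 9.58, 6.22 and 10.29. Ccl7, a further monocyte attractant named after its values were seen, measured 8.45, 9.82 and 8.96 against 11.06, 8.50 and 11.19. In each of these 3 genes Ang1 replicates 1 and 3 were above all untreated ones and Ang1 replicate 2 was not. Ccl20, also named after its values were seen, showed the same arrangement with Ang1 values of 7.73, 6.68 and 7.92 against 6.25, 7.11 and 6.69. Pf4 (-0.28 ± 0.51), Ccl5 (0.20 ± 0.57), Cxcl10 (0.27 ± 0.79) and Cxcl12 (0.07 ± 0.27), chosen likewise, overlapped between the groups.

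Cytokines and mediators were 8 higher and 6 lower of 14 measured. Their median of 0.09 (0.34 without both RNAs) turned sign under other settings. Of the 14, 3 genes were higher without overlap (21.4%, against 5.25% of all genes). These were Tnf, Il1b and Il1a, the principal early inflammatory cytokines of macrophages. Tnf measured 6.21, 5.65 and 5.35 in untreated rings and 8.19, 6.67 and 8.11 after Ang1, a difference of 1.92 ± 0.47. Like those of Cxcl2, its untreated values all lay below 6.52, so Tnf was dim in untreated rings. Il1b measured 6.85, 7.81 and 7.19 against 8.89, 8.40 and 8.81, a difference of 1.42 ± 0.33. All treated values of both genes exceeded all untreated values. Il1a measured 6.52, 6.22 and 6.14 against 7.64, 6.78 and 7.18 (0.91 ± 0.30). Csf1, the macrophage growth factor, was higher at all 4 of its kept probe sets, but the groups overlapped at the probe set used for it (1.10 ± 0.55, and 0.47 without both RNAs).

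Among 20 measured NF-kB subunits and targets, 12 were higher and 8 lower, with a median of 0.36. Of these, 5 were higher without overlap (25%, against 5.25% of all genes). Irf1, a transcription factor of inflammatory and interferon responses, measured 7.68, 8.0 and 7.86 in untreated rings and 8.57, 8.86 and 8.75 after Ang1 (0.88 ± 0.26). Birc3, an inhibitor of apoptosis, measured 6.78, 7.72 and 7.30 against 7.96, 7.94 and 8.11 (0.74 ± 0.30). Bcl3, a nuclear partner of NF-kB, measured 8.15, 8.23 and 8.46 against 8.77, 9.81 and 8.84 (0.86 ± 0.36). In these 3 genes the groups did not overlap. The NF-kB subunits Relb (0.71) and Nfkb2 (0.54), named after their values were seen, were the others without overlap, at 0.39 and 0.25 without both RNAs. With the replicate number as a block, 3 members of this list passed an unadjusted p of 0.05 in limma, against 4 without it, all higher. Of all genes, 225 of 9991 passed higher with the block and 211 without it. Sod2, the mitochondrial superoxide dismutase, measured 9.09, 8.56 and 8.96 against 10.81, 8.63 and 10.91, so that Ang1 replicate 2 lay among the untreated RNAs; its difference was 1.25 ± 0.55, and 1.83 without both RNAs. When arrays were weighted by their quality in limma, 6 probe sets of array A passed an adjusted p of 0.05, all higher. They were Cxcl2 (2.32), Tnf (2.35), Il1b (1.78), Ccl3 (1.79), Sod2 (1.81) and Cxcl1 (2.52). On array A the weights were 5.14, 0.13 and 1.29 for Ang1 replicates 1, 2 and 3 and 1.51, 0.30 and 1.28 for untreated ones. These calls therefore rest largely on Ang1 replicate 1. On array B the Ang1 weights were 2.17, 0.13 and 0.95.

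**Figure D1:**
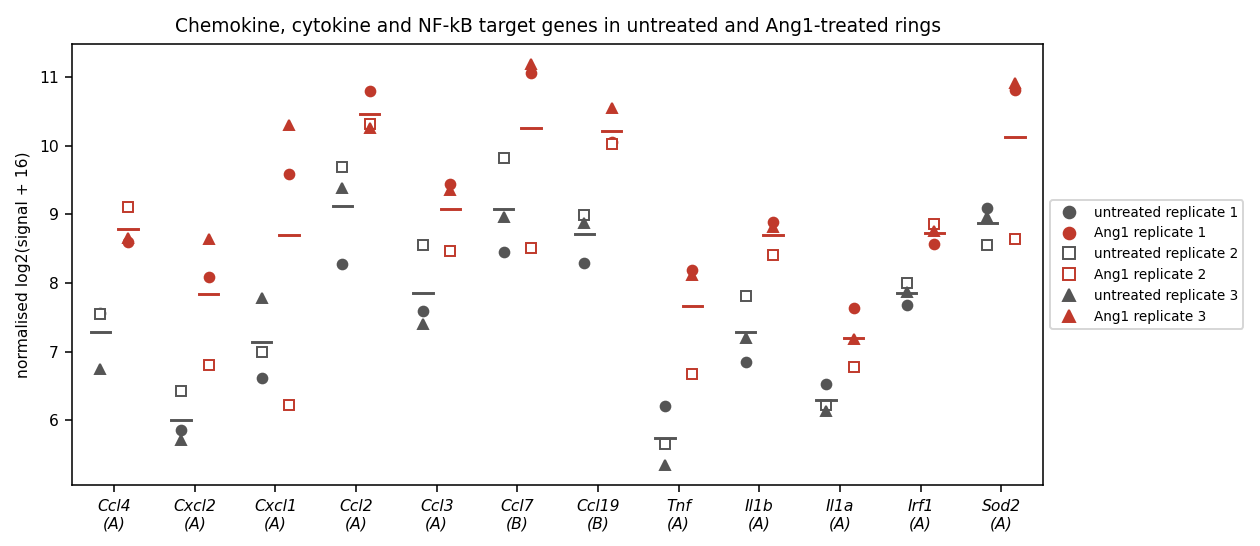
Normalised log2(signal + 16) of 12 inflammatory genes in each untreated (grey) and Ang1-treated (red) RNA, with the replicate by symbol, the group mean as a bar and the array type in brackets. Ang1 values of Ccl4, Ccl2, Ccl19, Tnf, Il1b, Il1a, Irf1 and Cxcl2 lie above all untreated values, and the open square of Ang1 replicate 2 falls among the untreated RNAs for Ccl3, Ccl7 and Sod2 and below them for Cxcl1.

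Promoter sequences of 3 of these genes are shown because NF-kB sites are a known feature of inflammatory promoters. They are RefSeq windows of 300 bases, from 250 before to 50 after the annotated start (build GRCr8), 5' to 3' on the gene's strand, with the match to the NF-kB consensus in capitals; in Cxcl2 the capitals cover 2 overlapping matches.
Cxcl2, chr14:17467206-17467505, minus strand: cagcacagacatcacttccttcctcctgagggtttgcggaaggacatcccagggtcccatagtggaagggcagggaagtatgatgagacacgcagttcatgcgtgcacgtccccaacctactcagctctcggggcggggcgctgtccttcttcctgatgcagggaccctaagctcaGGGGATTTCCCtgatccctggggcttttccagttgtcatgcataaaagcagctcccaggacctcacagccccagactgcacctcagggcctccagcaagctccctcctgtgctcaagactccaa
Irf1, chr10:38417685-38417984, plus strand: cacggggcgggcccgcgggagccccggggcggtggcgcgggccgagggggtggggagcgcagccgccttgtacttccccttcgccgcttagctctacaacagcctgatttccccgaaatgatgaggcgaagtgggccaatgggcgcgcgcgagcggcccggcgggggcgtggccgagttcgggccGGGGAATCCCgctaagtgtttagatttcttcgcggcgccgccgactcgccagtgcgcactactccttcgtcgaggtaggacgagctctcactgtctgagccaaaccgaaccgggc
Bcl3, chr1:88613506-88613805, minus strand: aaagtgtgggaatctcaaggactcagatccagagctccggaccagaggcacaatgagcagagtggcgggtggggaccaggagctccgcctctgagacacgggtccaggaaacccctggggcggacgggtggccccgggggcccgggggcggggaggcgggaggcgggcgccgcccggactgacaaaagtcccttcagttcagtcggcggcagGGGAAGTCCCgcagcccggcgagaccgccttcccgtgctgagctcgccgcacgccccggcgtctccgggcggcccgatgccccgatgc
The NF-kB consensus, searched on both strands, was found in 1400 of 33469 promoters in the table (4.18%), and the AP-1 motif TGANTCA in 7.33%. Of 53 measured members of the chemokine, cytokine and NF-kB lists, 44 had a promoter in the table, and 14 of these held the NF-kB consensus (31.8%) and 12 the AP-1 motif (27.3%). The NF-kB list was made up of the factor's own subunits and targets, so this share is a description. Of the 13 members higher without overlap, 9 had a promoter in the table and 4 of these held the NF-kB consensus, the 3 shown and Nfkb2. The windows of Tnf, Il1b, Ccl19 and Cx3cl1 held neither motif, and that of Il1a held the AP-1 motif alone.

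Immune-cell markers were measured beside these genes. Macrophage markers were 20 higher and 10 lower of 30, with a median of 0.12. Without both RNAs that stood apart, 25 of 30 were higher (median 0.22), against 5022 of 9845 of all genes. Over all RNAs, 1 gene was higher without overlap, Cd163 (3.33%, against 5.25% of all genes). Cd163, a scavenger receptor of macrophages, measured 7.51, 7.30 and 6.82 in untreated rings and 8.46, 8.98 and 7.68 after Ang1 (1.16 ± 0.37). Cd68, a pan-macrophage marker, overlapped fully, with 11.18, 11.02 and 10.01 against 10.92, 10.83 and 10.63. Adgre1, a surface receptor of macrophages, measured 10.49, 10.78 and 10.47 against 12.33, 9.59 and 12.52, and its single low treated value was again replicate 2. The median deviation of macrophage markers from their untreated means ran from -0.44 to 0.32 over untreated RNAs and from -0.10 to 0.28 over Ang1 RNAs. Of the neutrophil markers on the arrays, 2 of 8 were measured, and of the lymphocyte markers 5 of 16. The part of cell numbers in the chemokine values was not tested.

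MHC class II genes, which present antigen on macrophages and dendritic cells, were higher in 7 of 8 cases (median 0.47). Of the 8, 2 were higher without overlap (25%, against 5.25% of all genes). RT1-Ba measured 8.44, 7.40 and 7.41 against 9.51, 10.58 and 9.06 (1.97 ± 0.49); its probe set may also match related RT1 genes. RT1-DMa, which helps load peptides, measured 7.88, 7.03 and 7.36 against 8.44, 8.01 and 8.02 (0.73 ± 0.31). The values of Ciita, the regulator of class II transcription, overlapped (0.77 ± 0.45). Interferon-response genes were higher in 25 of 35 cases (median 0.22). Of the 35, 3 were higher without overlap (8.57%, against 5.25% of all genes), Irf1, Irf8 (0.45) and Socs3. Socs3, a feedback inhibitor of cytokine signalling, measured 6.70, 6.70 and 6.61 against 6.79, 8.94 and 7.01, and its difference of 0.91 ± 0.49 became 0.25 without both RNAs. However, Stat2, the signal transducer of type I interferon, was lower, with 9.52, 10.38 and 9.19 in untreated rings and 7.38, 8.18 and 8.38 after Ang1 (-1.72 ± 0.40). The other kept probe set of Stat2 was higher. Saa3, an acute phase protein, measured 7.52, 7.31 and 7.85 against 8.48, 8.58 and 9.18 (1.19 ± 0.33).

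Immediate early genes, the rapid transcriptional responders to growth factors and cytokines, were higher in 14 of 23 cases (median 0.16). Of the 23, 3 were higher without overlap (13.0%, against 5.25% of all genes). Zfp36, which destabilises Tnf and other cytokine transcripts, measured 7.24, 7.14 and 6.90 against 8.02, 8.60 and 8.09 (1.14 ± 0.30). Junb, an AP-1 subunit, measured 6.67, 5.39 and 6.95 against 7.33, 7.95 and 7.36 (1.21 ± 0.40, and 0.56 without both RNAs). Spry4, an inhibitor of receptor tyrosine kinase signalling, measured 9.98, 9.77 and 9.71 against 10.40, 10.55 and 10.30 (0.60 ± 0.28), and turned to -0.053 with arrays scaled to their medians.

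Over all RNAs, genes of the angiopoietin receptor axis divided evenly, with 11 of 21 higher and 10 lower and a median of 0.02. None was higher without overlap, and 2 were lower without overlap (9.52%, against 7.34% of all genes). Without both RNAs that stood apart, 14 of 20 were higher (median 0.12), against 5022 of 9845 of all genes. Tek measured 11.40, 11.28 and 11.64 in untreated rings and 10.99, 9.96 and 11.11 after Ang1, a difference of -0.75 ± 0.36 (limma, unadjusted p = 0.059, adjusted p = 0.467). Its treated values all lay below the untreated ones, with Ang1 replicate 2 well below the rest; without both RNAs the difference was -0.48. Pak1, a kinase of the cytoskeleton downstream of Tie2, measured 8.64, 8.68 and 8.69 against 8.31, 7.67 and 8.36 (-0.56 ± 0.29).

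The other members overlapped. Tie1, the orphan partner of Tie2, had a difference of 0.30 ± 0.29 and Angpt2 of -0.23 ± 0.27. Akt1, the kinase downstream, differed by 0.27 ± 0.38 and turned to -0.11 with arrays scaled to their medians. Ptpn11, a phosphatase that binds Tie2, differed by 0.02 ± 0.31 and turned to -0.49 under that scaling and to -0.18 with the trimmed mean alone. Ptprb, a phosphatase that restrains Tie2, measured 8.63, 6.09 and 9.32 against 8.65, 5.96 and 8.30, low in replicate 2 of each group. Tnip2 measured 10.82, 10.68 and 11.12 against 11.20, 8.24 and 11.13, so its difference of -0.69 ± 0.67 rested on Ang1 replicate 2 and became 0.20 without both RNAs. Angpt1 and Foxo1 did not pass the filter on low values.

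FOXO target genes, which AKT signalling is known to repress, were higher in 11 of 25 cases and lower in 14 (median -0.02). Without both RNAs that stood apart, 19 of 25 were higher (median 0.16), against 5022 of 9845 of all genes. Over all RNAs, 1 was higher and 1 lower without overlap (4% each, against 5.25% and 7.34% of all genes). Pdk4, a brake on glucose oxidation and a classical FOXO target, measured 8.40, 10.45 and 8.88 in untreated rings and 8.31, 7.12 and 7.62 after Ang1, without overlap (-1.56 ± 0.62). Without both RNAs the difference of Pdk4 was -0.70. Bcl2l11, a pro-apoptotic target named after its values were seen, was higher without overlap (0.25). Sod2, also a FOXO target, is described above, and Ccng2 (-0.93 ± 0.63) and Pik3ip1 (0.40 ± 0.28) overlapped.

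Endothelial markers were lower in 16 of 19 cases (median -0.27, and -0.15 without both RNAs), against 5526 of 9991 of all genes. Of the 19, 1 was lower without overlap, Tek (5.26%, against 7.34% of all genes). With the replicate number as a block, which assumes that numbers pair the RNAs, 3 members passed an unadjusted p of 0.05 in limma, all lower. Without the block none did. Of all genes, 443 of 9991 passed lower with the block and 379 without it. The 3 members were Tek, Vwf and Erg, an endothelial transcription factor. Their blocked adjusted p in limma was 0.455, 0.843 and 0.455. Erg measured 9.77, 9.08 and 9.56 in untreated rings and 9.19, 7.73 and 9.01 after Ang1, lower in each same-numbered pair. The median deviation of endothelial markers from the untreated means was 0.28, -0.39 and 0.16 in the untreated RNAs and -0.28, -1.46 and 0.28 in the Ang1 RNAs, and Ang1 replicate 2 was the lowest by more than 1 log2 unit. Vwf, the endothelial clotting protein, measured 7.82, 6.64 and 7.13 against 6.75, 5.37 and 6.73 (-0.91 ± 0.46). Kdr, the main VEGF receptor, measured 8.72, 8.75 and 8.65 against 8.42, 7.25 and 9.05; its difference of -0.47 ± 0.41 became 0.054 without both RNAs. Pecam1 measured 7.96, 5.90 and 7.17 against 8.28, 6.29 and 7.93 (0.49 ± 0.61), and Cldn5, a tight-junction protein, 8.86, 7.30 and 9.39 against 7.85, 7.49 and 8.69 (-0.51 ± 0.57). Both were low in replicate 2 of each group. Klf2, a transcription factor of flow and quiescence, measured 8.96, 8.78 and 8.30 against 7.96, 9.55 and 7.81, with Ang1 replicate 2 high. Hmox1, the haem-degrading enzyme, was higher without overlap, at 8.13, 8.96 and 9.04 against 9.31, 9.32 and 10.18 (0.90 ± 0.41). Icam1 (0.30 ± 0.65) and Vcam1 (0.29 ± 0.39), the adhesion molecules of activated endothelium, overlapped, and Vcam1 turned to -0.40 with median scaling and to -0.084 with the trimmed mean alone. Cdh5 and Pdgfb had no probe set with 1 gene symbol, and Nos3 and Flt1 did not pass the filter.

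**Figure D2:**
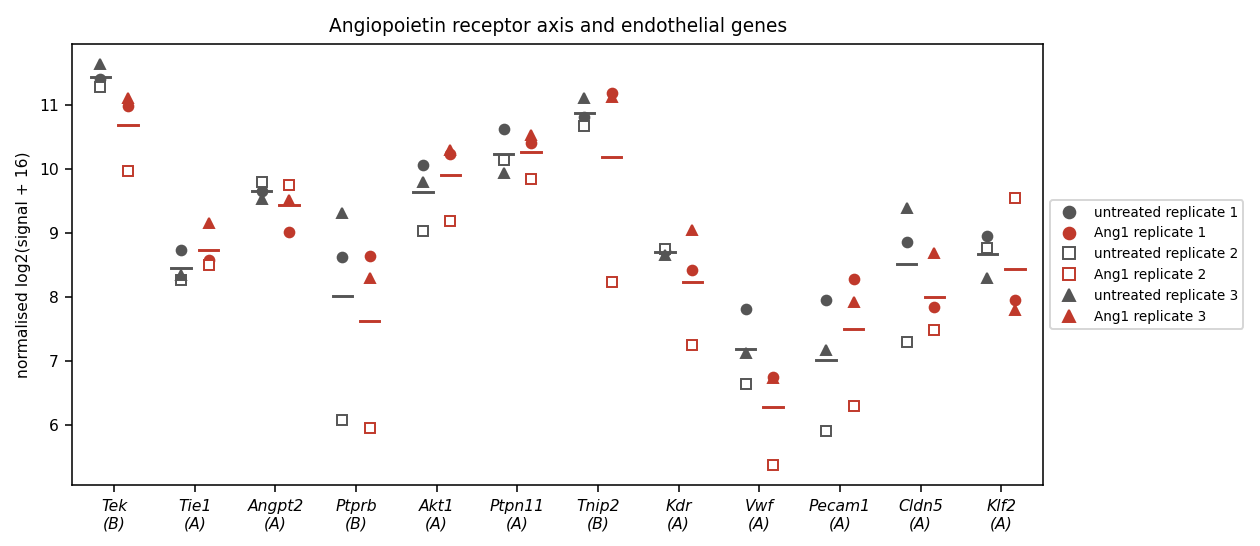
Normalised log2(signal + 16) of genes of the angiopoietin receptor axis and of endothelial cells in each untreated (grey) and Ang1-treated (red) RNA, with group means as bars. Tek is lower in all 3 treated RNAs, and replicate 2 (open squares) is low in both groups for Ptprb, Pecam1 and Vwf and in the treated group alone for Tnip2 and Kdr.

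Aortic wall is mostly smooth muscle, and 28 of its 29 marker genes on the arrays were measured: 9 higher and 19 lower (median -0.14), against 4465 and 5526 of all genes. Of the 28, 3 were lower without overlap (10.7%, against 7.34% of all genes). Des, the muscle filament desmin, was higher without overlap (0.75, and 0.47 without both RNAs) and was named after its values were seen. Pln, phospholamban, which restrains the calcium pump of muscle, measured 8.96, 9.05 and 8.80 in untreated rings and 7.88, 7.50 and 7.75 after Ang1 (-1.23 ± 0.27, limma, adjusted p = 0.951), and was lower at both of its kept probe sets. Myh11, smooth muscle myosin, measured 10.64, 10.60 and 11.77 against 10.45, 9.88 and 10.58 (-0.70 ± 0.39). Speg, a muscle kinase, measured 7.94, 8.57 and 8.42 against 7.62, 6.72 and 7.84 (-0.92 ± 0.36). In all 3 genes the treated values lay below the untreated ones. Acta2, smooth muscle actin, overlapped (-0.14 ± 0.45) and turned to 0.12 with the trimmed mean alone. Pericyte markers were lower in 8 of 10 cases (median -0.27), with Cd248 at 7.54, 7.54 and 8.34 against 7.23, 5.69 and 7.22, and Rgs5 at 9.19, 8.76 and 8.84 against 8.21, 7.69 and 8.96. Cd248 was the 1 pericyte marker lower without overlap (10%, against 7.34% of all genes), and Rgs5 overlapped. With the replicate block 2 pericyte markers passed an unadjusted p of 0.05 in limma, Cd248 and Rgs4, both lower, against none without it. Of all genes, 443 of 9991 passed lower with the block and 379 without it.

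Among probe sets with 1 gene symbol, the smallest p-values of the whole comparison belonged to genes of array B that were lower after Ang1. Wfdc2, a secreted protein with whey acidic protein domains, measured 8.68, 9.23 and 8.69 in untreated rings and 6.77, 6.05 and 6.24 after Ang1, a difference of -2.51 ± 0.34 (limma, adjusted p = 0.102). Dpep2, a membrane dipeptidase that cleaves leukotriene D4, measured 7.90, 7.88 and 7.74 against 5.86, 5.33 and 6.16 (-2.06 ± 0.33, limma, adjusted p = 0.228). The treated values of both genes were more than 1 log2 unit below every untreated value. They also all lay below 6.82, the lowest mean over the 9 arrays that the filter kept on array B. Both genes were thus dim after Ang1 and passed the filter through the other RNAs, and the size of their differences rests on dim values. Without both RNAs the differences were -2.19 and -1.79. Wfdc2 is also in the list of mesothelial markers, of which 4 were measured, 2 higher and 2 lower; the part of mesothelial cells was not tested. With array weights Wfdc2 (-2.19) passed the adjusted test on array B, together with 1 lower probe set that had no gene symbol.

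Ephb1, a receptor for ephrin-B ligands, measured 7.63, 7.78 and 7.79 against 5.72, 4.94 and 5.73 (-2.27 ± 0.48). Rab30, a small GTPase of the Golgi, measured 7.98, 8.31 and 7.99 against 5.57, 5.29 and 6.17 (-2.42 ± 0.49), while its other kept probe set was higher. The mitochondrial histidyl-tRNA synthetase Hars2 measured 8.02, 8.99 and 8.28 against 6.78, 5.43 and 6.45 (-2.21 ± 0.41). For all 3 genes the groups were separate, as the rule that chose them required, and Ang1 replicate 2 was the lowest RNA. Their treated values also all lay below 6.82, so they were dim after Ang1. Mrpl47, a protein of the mitochondrial ribosome, differed by -1.94 ± 0.39, Afg2b by -2.08 ± 0.38 and Smim1, which carries the Vel blood group antigen in humans, by -2.04 ± 0.36, all without overlap.

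On array A the lower genes named were likewise taken by p from those without overlap, so their groups were separate by that choice. Sugt1, a co-chaperone of the kinetochore, measured 9.99, 9.51 and 9.07 against 8.45, 7.85 and 8.01 (-1.42 ± 0.32). Spc24, a kinetochore subunit, measured 6.97, 7.67 and 7.01 against 5.35, 4.65 and 6.30 (-1.78 ± 0.41). Its treated values all lay below 6.52, the lowest mean kept by the filter on array A. Fabp3, a fatty acid binding protein of muscle, measured 8.24, 8.0 and 7.30 against 7.05, 6.29 and 6.74 (-1.15 ± 0.33). Eci3, an isomerase of fatty acid oxidation, differed by -0.99 ± 0.24 and Sdhaf4, an assembly factor of succinate dehydrogenase, by -1.01 ± 0.30. The others of this set were Mrpl49 (-1.09), Lmcd1 (-1.26), Cdadc1 (-0.97), Thoc1 (-0.93) and Mamdc2 (-1.04). At 1 of 4 kept probe sets Cdadc1 was higher. At the brightest probe set of Mrpl49, which represents it in the lists, the groups overlapped (-0.34, and 0.0021 without both RNAs).

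**Figure D3:**
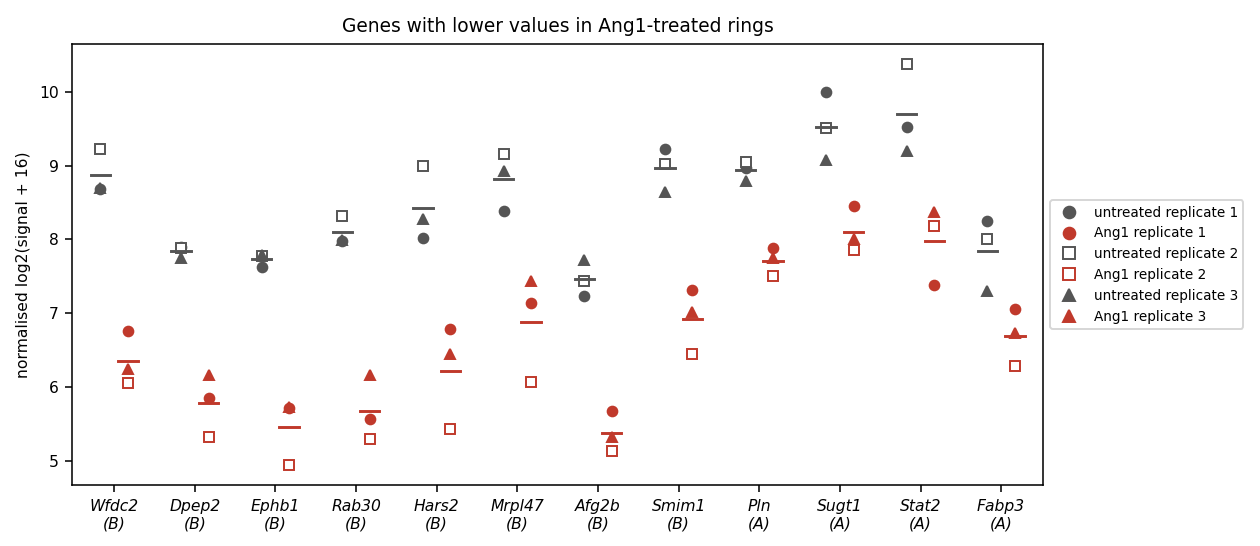
Normalised log2(signal + 16) of 12 genes with lower values after Ang1, in each untreated (grey) and Ang1-treated (red) RNA, with group means as bars and the array type in brackets. In every gene shown the 3 treated values lie below the 3 untreated values, as the rule that chose them required.

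The remaining higher genes chosen by the same rule were of mixed function. On array B Tesmin, a germ cell protein, measured 7.34, 7.43 and 7.89 against 9.25, 10.50 and 8.69 (1.93 ± 0.47). Ubash3b, a phosphatase that restrains receptor signalling, measured 6.97, 6.01 and 5.65 against 7.99, 8.83 and 7.82 (2.00 ± 0.49), and its 3 kept probe sets were all higher. Ndnf, a secreted factor with angiogenic activity in other systems, measured 6.30, 6.78 and 6.48 against 7.86, 8.07 and 7.76 (1.38 ± 0.36), while its other kept probe set was not higher. The groups did not overlap in these 3 genes, as the rule required. All untreated values of Ndnf lay below 6.82, the lowest mean kept by the filter on array B. Prkag2, a regulatory subunit of AMP-activated kinase, differed by 1.63 ± 0.44 and the non-coding Mir9-3hg by 1.65 ± 0.40 (1.08 without both RNAs). On array A Cndp2 (1.07), Ier5 (1.25), Dpp9 (1.09), Rnf123 (0.93), Pmp22 (0.90) and Rac2 (1.07) were higher without overlap. Rnf123 and Pmp22 were each higher at 1 of 2 kept probe sets.

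Proliferation genes were lower in 25 of 34 cases (median -0.22), against 5526 of 9991 for all genes. Without both RNAs that stood apart, 14 of 34 were higher (median -0.17), against 5022 of 9845 of all genes. Over all RNAs the median deviation of the list overlapped between groups. It was 0.13, 0.07 and -0.14 in the untreated RNAs and -0.03, -0.10 and -0.29 in the Ang1 RNAs. The share lower without overlap was 5.88%, which is not above the 7.34% of all genes; the 2 genes were Ccna2 and Birc5 (-0.22, named after its values were seen), with Ccna2, a cyclin of S phase and mitosis, at 8.44, 8.22 and 7.44 against 7.03, 6.84 and 6.96 (-1.09 ± 0.38). Mki67 overlapped (-0.35 ± 0.44). Respiratory chain genes were lower in 39 of 49 cases (median -0.19, and -0.22 without both RNAs), again against 5526 of 9991. The share lower without overlap was 6.12%, likewise not above the 7.34% of all genes; the 3 genes were Ndufa1 (-0.34), Cox6b1 (-0.49, named after its values were seen) and Ndufs4, a complex I subunit, at 7.84, 8.10 and 8.01 against 7.07, 7.63 and 6.92 (-0.78 ± 0.33). The median deviation of this list was 0.01, 0.03 and 0.05 in the untreated RNAs and -0.19, -0.17 and -0.25 in the Ang1 RNAs. All 3 treated RNAs were thus below all 3 untreated ones. Over all genes it was 0.005, 0.05 and -0.02 in the untreated RNAs and 0.03, -0.18 and 0.005 in the Ang1 RNAs. In Ang1 replicate 2 the list was therefore not below all genes. Cytosolic ribosomal protein genes were lower in 27 of 39 cases, with a median of -0.10. Their median deviations were separate as well, at 0.004, -0.02 and 0.08 in the untreated RNAs and -0.07, -0.07 and -0.09 in the Ang1 RNAs.

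**Figure D4:**
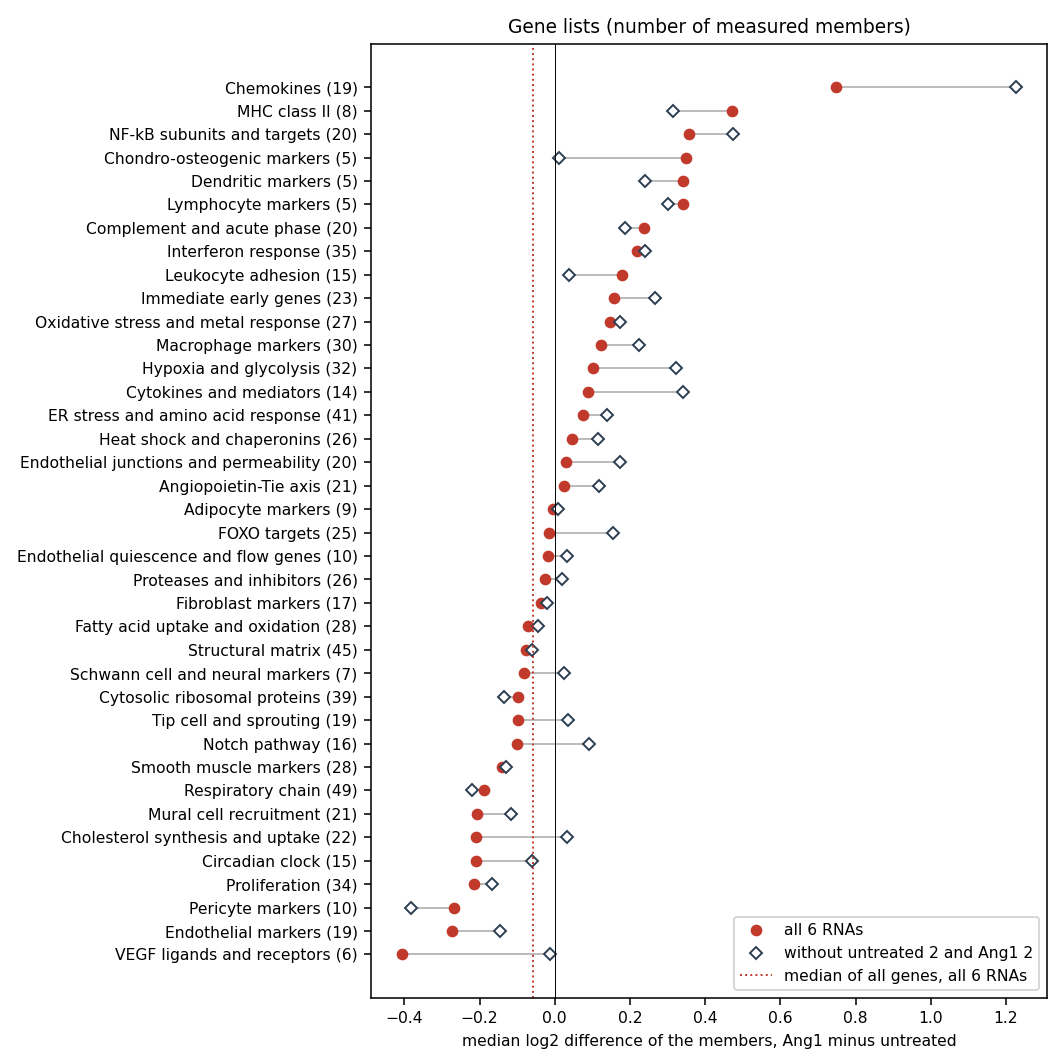
Median log2 difference, Ang1 minus untreated, of the measured members of each gene list with at least 5 members, over all 6 RNAs (red circles) and without untreated replicate 2 and Ang1 replicate 2 (open diamonds). Chemokines are the highest list under both, at 0.75 and 1.23, and the dotted line marks the median of all genes, -0.06.

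Genes with probe sets on both array types gave a measure of agreement between the arrays. Of 1222 such genes, 681 differed in the same direction on both (55.7%), and the correlation of the differences across genes was 0.13. For the 99 probe sets present on both arrays, 66 had the same direction and the correlation was 0.67. Genes are not independent replicates, and these values describe the arrays.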

How the data were processed

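Both value tables hold one-channel Affymetrix signal intensity as deposited by the authors, with MAS5 named in the submitters' processing notes and its version not given in the sources used here. The trimmed mean of an array as deposited, leaving out 2% at each end, was about 250 except for Ang1 replicate 3 on array B, 94.8. Each array was rescaled to 250, 16 was added, log2 taken and arrays quantile-normalised within each type. Control probe sets (57) were left out, and probe sets at or above the 40th percentile of mean value were kept, 9520 of 15923 and 9166 of 15333. The lowest kept mean was 6.52 on array A and 6.82 on array B. A gene with dim values in 1 group could pass through the other RNAs. Symbols came from platform annotation updated through gene IDs, with 12789 and 7570 probe sets having 1 symbol and 312 and 100 several. limma 3.58.1 in R 4.3.3 fitted all 9 arrays of a type, with an intensity trend and Benjamini-Hochberg adjustment over each array type. A gene on both types was represented by 1 probe set in lists. Scripts were tested on simulated data.

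Genes named were those without overlap, ordered by p, 12 each way on array A and 8 on array B, plus a panel of 32 genes (23 measured) and up to 4 members per list with the smallest p; genes named otherwise are marked in the text. Members and lists were chosen with earlier results of these data known. The design text states that each animal gave an RNA to each group. Deviations of same-numbered RNAs correlated on array A at 0.37, 0.49 and 0.34 and on array B at 0.14, 0.25 and 0.21. Numbers were therefore taken to pair the RNAs, but only in the alternative with the replicate block. The main fit held the group alone, so its standard errors and p-values leave the pairing out. Alternatives varied normalisation, pseudocount (1 or 64), filter, arrays in the fit, array weights, the replicate block and the intensity trend.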

Additional observations from a re-analysis of the deposited data

How the results depend on the processing

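The absence of probe sets past an adjusted p of 0.05 held on both arrays in every alternative except array weights, which gave 6 on array A and 2 on array B. The number at an unadjusted p under 0.05 on array A, 303, became 514 with median scaling, 687 without the filter, 176 with a filter at the 60th percentile, 180 from the 6 arrays alone and 1133 with array weights, and ran from 189 (without untreated replicate 2) to 588 (without Ang1 replicate 3) when each replicate was left out. On array B, 964 became 602 from the 6 arrays alone and 514 without both RNAs that stood apart, and ran from 587 (without untreated replicate 2) to 1707 (without Ang1 replicate 3). With the replicate number as a block, which assumes that numbers pair the RNAs, no probe set passed the adjusted threshold. On arrays A and B 417 and 973 passed unadjusted, of which 279 and 825 were among the 303 and 964. No adjusted call changed, while unadjusted counts of some lists did, such as macrophage markers (1 to 2 higher) and mitochondrial ribosomal proteins (1 to 3 lower). Over all 9991 genes the unadjusted counts went from 211 to 225 higher and from 379 to 443 lower. Of 125 named genes, 104 kept 1 sign in all 17 alternatives, and of 38 lists 10 did, among them the chemokines (0.37 to 1.23). Many of the named genes were chosen for separate groups or a small p in these same data. That choice favours a steady sign, so the share describes the named genes only. Signs turned with median scaling for Akt1 (-0.11), Ptpn11 (-0.49), Cd68 (-0.51), Vcam1 (-0.40), Spry4 (-0.053), Cxcl10 (-0.023) and Cxcl12 (-0.35). With the trimmed mean alone they turned for Ptpn11 (-0.18), Acta2 (0.12), Cd68 (-0.19), Vcam1 (-0.084) and Cxcl12 (-0.041). Without both RNAs they turned for Tnip2 (0.20), Kdr (0.054), Pik3r2 (-0.20) and Ccng2 (0.048), and with array weights for Tnip2 (0.16). Leaving out each replicate also turned the sign of genes with these ranges: Acta2 -0.61 to 0.25, Akt1 -0.026 to 0.65, Ccl5 -0.40 to 0.85, Cd68 -0.31 to 0.27, Cxcl10 -0.61 to 1.23, Cxcl12 -0.0588 to 0.31, Icam1 -0.26 to 1.21, Kdr -0.86 to 0.0315, Klf2 -0.83 to 0.0805, Mki67 -0.90 to 0.0421, Pdgfrb -0.54 to 0.19, Pecam1 -0.0697 to 1.13, Pf4 -0.66 to 0.00757, Pgf -1.48 to 0.14, Ptpn11 -0.12 to 0.23, Ptprb -1.32 to 0.45 and Tnip2 -1.20 to 0.30. The cause was not tested. With 3 arrays per group their number limits the precision.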

Other observations

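Proteins of the mitochondrial ribosome, a family gathered by symbol after values were seen, were lower in 50 of 72 cases (median -0.24, and -0.13 without untreated replicate 2 and Ang1 replicate 2), with 9 lower (12.5%) and 4 higher (5.56%) without overlap. Of all genes, 5526 of 9991 were lower, and 7.34% were lower and 5.25% higher without overlap. The aminoacyl-tRNA synthetases, gathered likewise, were lower in 16 of 26 cases. Without both RNAs 13 of 26 were higher (median -0.0027). The 5 without overlap (19.2%) were the mitochondrial enzymes Hars2 (-2.21), Fars2 (-1.32), Yars2 (-0.93), Wars2 (-0.66) and Rars2 (-0.61). The other mitochondrial enzymes measured overlapped, with Ears2 (0.14) and Nars2 (0.011) higher and Cars2, Iars2, Sars2 and Tars2 lower. Without both RNAs Fars2 differed by -0.84 and Rars2 by -0.18.

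The circadian genes were lower in 10 of 15 cases (median -0.21), against 5526 of 9991 of all genes. Without both RNAs that stood apart, 7 of 15 were higher (median -0.06), against 5022 of 9845 of all genes. Of the 15, 1 was higher without overlap, Npas2 (6.67%, against 5.25% of all genes), and none lower. Per3 measured 7.07, 9.23 and 9.02 in untreated rings and 5.48, 5.65 and 8.23 after Ang1, with overlap. Npas2 measured 8.02, 8.03 and 7.93 against 8.37, 10.73 and 8.23. Lipe, the hormone-sensitive lipase of adipocytes, measured 9.85, 9.63 and 9.51 against 10.57, 11.94 and 10.50, while 5 of 9 adipocyte markers were lower. Ms4a1, a B cell marker, measured 7.47, 6.85 and 7.86 against 8.27, 9.49 and 8.21. Phgdh, of serine synthesis, measured 7.82, 6.66 and 8.13 against 8.71, 9.18 and 8.17.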
